A study of Mus musculus with 16 samples.

Results

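The 10 genes described here are known as targets of Wnt signalling around the central vein of the liver, or as parts of the Wnt pathway in those cells, and they were followed through 16 mouse liver RNA-seq libraries. They are Glul, Oat, Axin2, Lgr5, Tbx3, Rnf43, Znrf3, Cyp1a2, Rgn and Fzd4, chosen by name as 10 of the 24411 gene symbols in the count tables, and all 10 passed the filter on low counts. The 16 libraries fall into 4 groups of 4. The PF group had vehicle and a pair-fed control diet, in which food is matched to what the ethanol group eats. The EtOH group had vehicle and an ethanol diet after the NIAAA model, which joins chronic feeding with a binge. The EtOH+MBV and PF+MBV groups were treated with matrix-bound nanovesicles (MBV), vesicles embedded in extracellular matrix, on the ethanol and on the pair-fed diet. All 4 groups were sampled as liver tissue, and strain, sex, age, dose and schedule were not stated in the labels. Nor is it stated that the replicates come from different mice, so p-values measure the spread between these samples, which may be technical.

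Along the liver lobule, hepatocytes differ with their distance from the central vein, and those next to it receive Wnt ligands and R-spondins from the endothelium of that vein. Frizzled receptors such as Fzd4, with the co-receptors Lrp5 and Lrp6, take up the Wnt signal, and R-spondins bound by Lgr receptors such as Lgr5 keep the ubiquitin ligases Rnf43 and Znrf3 from removing Frizzled from the cell surface. Stabilised beta-catenin then acts with TCF factors on genes such as Glul, the glutamine synthetase of the innermost pericentral hepatocytes, and Axin2, a scaffold of the complex that degrades beta-catenin and so a feedback brake. Livers of mice lacking hepatic beta-catenin are known to lose much of this pericentral programme.

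RefSeq promoter entries (build GRCm38.p6, 250 bases before to 50 bases after a start) were found for 6 of the 10 genes, Glul, Oat, Axin2, Rnf43, Cyp1a2 and Fzd4, with 2 entries for Rnf43. The 250 bases upstream of Cyp1a2, Glul and Axin2 are printed because Cyp1a2 went up with ethanol while Glul and Axin2 went down. Each reads 5′ to 3′ on the strand of the gene, Cyp1a2 at chr9:57683656-57683905 (minus strand), Glul at chr1:153899679-153899928 (plus strand) and Axin2 at chr11:108920099-108920348 (plus strand). Capitals mark matches to the searched letters.
Cyp1a2: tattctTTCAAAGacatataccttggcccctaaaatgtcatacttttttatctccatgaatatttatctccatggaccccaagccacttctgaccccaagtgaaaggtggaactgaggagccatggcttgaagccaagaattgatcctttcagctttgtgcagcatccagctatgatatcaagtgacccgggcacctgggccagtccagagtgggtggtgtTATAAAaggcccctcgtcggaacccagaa
Glul: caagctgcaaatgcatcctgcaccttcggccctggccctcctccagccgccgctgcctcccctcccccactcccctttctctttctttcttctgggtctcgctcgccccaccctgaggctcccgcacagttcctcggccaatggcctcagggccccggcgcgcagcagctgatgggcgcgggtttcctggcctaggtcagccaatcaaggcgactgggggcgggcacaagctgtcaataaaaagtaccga
Axin2: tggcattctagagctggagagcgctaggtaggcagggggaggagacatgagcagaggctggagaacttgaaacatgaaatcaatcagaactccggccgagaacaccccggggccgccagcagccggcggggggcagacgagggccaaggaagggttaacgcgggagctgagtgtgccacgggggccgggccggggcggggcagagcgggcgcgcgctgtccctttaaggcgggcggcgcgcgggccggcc
The TCF letters CTTTGAT and CTTTGAA and, for the aryl hydrocarbon receptor (AHR), the letters TTGCGTG were searched on both strands of the 300-base windows. The TATA letters TATAAA were added to the search after the sequences were seen. No shorter form of these letters was searched. The matches do not overlap each other in these windows. Of the 7 windows, the Cyp1a2 window alone held a match: CTTTGAA in reverse complement 244 bases before the start, and TATAAA 29 bases before it. Among 32851 promoters of the same length, CTTTGAT stood in 3.73%, CTTTGAA in 5.14%, TTGCGTG in 1.16% and TATAAA in 13.6%. GC content was 49.7% in the Cyp1a2 window, near the median of 52.7% over all promoters. It was higher for Glul (64.3%), Axin2 (70%), Fzd4 (72.7%) and Oat (61.7%), and lower in the 2 windows of Rnf43 (46.7% and 44.3%). These matches describe letters in a short window and say nothing of binding.

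In the GRCm38 annotation Glul lies on chromosome 1 (153899944 to 153909723), Oat on chromosome 7 (132557478 to 132576398), Axin2 on chromosome 11 (108920349 to 108950783) and Lgr5 on chromosome 10 (115450311 to 115587780). Tbx3 lies on chromosome 5 (119670669 to 119684724), Rnf43 on chromosome 11 (87662722 to 87735539) and Znrf3 on chromosome 11 (5276324 to 5444847). Cyp1a2 lies on chromosome 9 (57676937 to 57683703), Rgn on chromosome X (20549787 to 20562089) and Fzd4 on chromosome 7 (89404355 to 89413134). The libraries do not mark strand, so reads of a gene and of an exon that overlaps it on the other strand cannot be told apart. This touches Glul, whose exons overlap Teddm2 (39 counts in all libraries against 259133 for Glul), and Axin2, whose exons overlap the antisense gene Gm11670, which is not among the counted symbols.

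Each library had between 15.3 and 20.5 M gene counts. Hepatocyte markers such as Alb and Hnf4a, 9 in all, summed to 83950 CPM or more in every library, where CPM is the count of a gene scaled to the size of its library, itself adjusted by TMM factors. A smaller share of reads failed to map with ethanol, 11.9% to 13.8% in EtOH against 15.9% to 19.9% in PF (2-sided exact permutation test, p = 0.0286, the smallest that 4 against 4 allows, adjusted p = 0.0571 over 4 tests). Replicate 1 of the EtOH group stood apart: it was the lowest of all 16 libraries for 7 of the 10 genes. It also had the highest sums of dividing cell markers (81.94 CPM, against 4.063 CPM at the least in its group) and of Kupffer cell markers (686.8 CPM). The lowest hepatocyte marker sum (83950 CPM) and the highest TMM factor (1.27) were those of this library too. Each comparison of the 10 genes was therefore also computed without it.

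**Figure D1:**
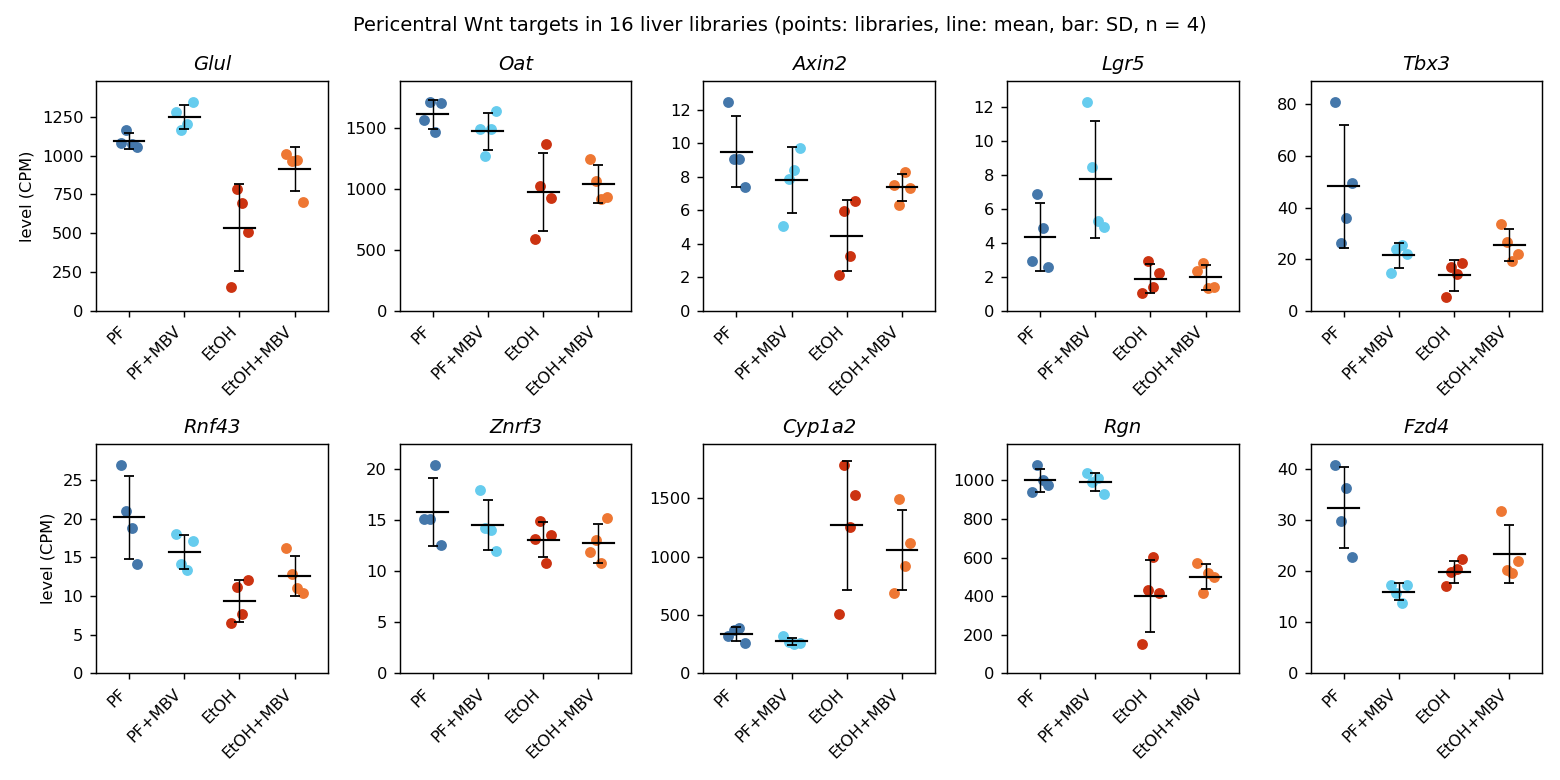
Level of each gene in CPM (linear axes from 0) in every library of the 4 groups, with points for libraries, a line for the mean and a bar for the SD (n = 4). Glul, Oat, Rgn, Axin2, Tbx3 and Rnf43 sit lower in EtOH than in PF, Cyp1a2 sits higher in both ethanol groups, and Fzd4 is lowest in PF+MBV.

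Divided by exon length, the enzymes lay far above the pathway genes. In PF the metabolic enzymes led, with Oat at 750.1 ± 55.9 (SD, n = 4), Rgn at 622.4 ± 37.7, Glul at 392 ± 17.5 and Cyp1a2 at 173.7 ± 29.5 CPM per kb, and the libraries of these 4 genes did not overlap their neighbours. The pathway genes followed, with Tbx3 at 9.27 ± 4.57, Fzd4 at 4.83 ± 1.18, Rnf43 at 4.45 ± 1.18, Axin2 at 2.23 ± 0.50, Znrf3 at 2.00 ± 0.42 and Lgr5 at 0.915 ± 0.424 CPM per kb. Among these, Tbx3 and Fzd4, Tbx3 and Rnf43, Fzd4 and Rnf43, and Axin2 and Znrf3 overlapped. In EtOH, Cyp1a2 came first at 655.8 ± 285 CPM per kb, overlapping Oat at 454 ± 148, while Rgn stood at 249.4 ± 115 and Glul at 191.8 ± 99.9. In PF+MBV the order began as in PF, with Oat, Rgn, Glul and Cyp1a2, and Lgr5 reached 1.64 ± 0.73 CPM per kb, overlapping Axin2 at 1.83 ± 0.46.

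The ethanol diet was first compared with pair feeding in the vehicle groups. Of the 10 genes, 8 fell and 1 rose (edgeR's quasi-likelihood test, Benjamini-Hochberg adjusted p under 0.05 over all 12901 tested genes), where 39.8% of all tested genes passed, 19.5% of them lower and 20.4% higher. The median log2 fold change of the 10 genes was -1.06, against 0.01 over all tested genes. Fold changes below carry their SE from the fit of all 16 libraries (n = 4 per group). For 8 of the 10 genes, all but Lgr5 and Znrf3, the EtOH and PF libraries did not overlap, as held for 32.3% of all tested genes. In bulk tissue, fewer cells of a type and less RNA per cell cannot be told apart.

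Both receptors fell. Fzd4, a Frizzled receptor that also takes up the ligand Norrin in endothelium, was at 40.9, 29.8, 36.3 and 22.8 CPM in PF and at 17.0, 19.9, 20.4 and 22.4 CPM in EtOH. The lowest PF library lay just above the highest EtOH library, and the groups did not overlap. Fzd4 was 1.63-fold lower (log2 -0.71 ± 0.18, edgeR adjusted p = 0.00498). Lgr5, the R-spondin receptor of hepatocytes next to the central vein, was at 2.93, 6.89, 4.89 and 2.55 CPM in PF and at 1.02, 2.91, 1.41 and 2.19 CPM in EtOH. Its highest EtOH library lay above its lowest PF library, so the groups overlapped. Lgr5 was 2.30-fold lower (log2 -1.20 ± 0.41, adjusted p = 0.0272). That call rested on single libraries: the adjusted p was 0.102 without PF 2, 0.0607 without PF 3, 0.0726 without EtOH 1 and 0.0616 without EtOH 3, with log2 values of -0.89, -1.14, -0.98 and -1.10.

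The feedback regulators divided. Rnf43 was at 27.0, 20.99, 18.8 and 14.1 CPM in PF and at 6.49, 11.2, 7.72 and 12.1 CPM in EtOH, 2.16-fold lower without overlap (log2 -1.11 ± 0.22, edgeR adjusted p = 0.000953). Znrf3, the ligase that acts on Frizzled alongside it, was at 15.1, 15.1, 20.4 and 12.6 CPM in PF and at 13.1, 14.9, 10.7 and 13.5 CPM in EtOH. Its groups overlapped and its difference did not pass (log2 -0.27 ± 0.16, 95% interval -0.62 to 0.07, adjusted p = 0.191). Axin2 fell 2.13-fold, from 12.5, 9.08, 9.07 and 7.39 CPM in PF to 2.13, 5.93, 3.29 and 6.58 CPM in EtOH (log2 -1.09 ± 0.29, adjusted p = 0.00692). All 4 EtOH libraries lay below all 4 PF libraries for Axin2. The transcription factor Tbx3 fell furthest of the 10, 3.54-fold (log2 -1.82 ± 0.36, adjusted p = 0.000937). It was at 81.0, 26.4, 36.1 and 49.5 CPM in PF, a wide spread led by PF 1, and at 5.18, 17.0, 14.2 and 18.4 CPM in EtOH.

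Among the enzymes, 3 fell and Cyp1a2 rose. Glul, which binds ammonia into glutamine, was at 1079, 1166, 1078 and 1055 CPM in PF and at 153.8, 782.3, 696.4 and 509.7 CPM in EtOH. PF libraries lay close together, EtOH libraries were spread and all lower, and EtOH 1 was far below the rest. Glul was 2.04-fold lower (log2 -1.03 ± 0.31, edgeR adjusted p = 0.0158), and without EtOH 1 the log2 value was -0.72 (adjusted p = 0.00107). In a fit of the PF and EtOH libraries alone its adjusted p was 0.069. Oat, ornithine aminotransferase, was at 1565, 1716, 1467 and 1709 CPM in PF and at 593.3, 1024, 1368 and 922.7 CPM in EtOH, 1.65-fold lower without overlap (log2 -0.72 ± 0.19, adjusted p = 0.00753). Rgn, regucalcin, a lactonase of vitamin C synthesis in mice, was at 940, 1082, 1004 and 974.7 CPM in PF and at 152.7, 433.1, 601.2 and 416 CPM in EtOH. Every EtOH library of Rgn was far under the PF range, and the gene was 2.50-fold lower (log2 -1.32 ± 0.26, adjusted p = 0.00105).

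Cyp1a2, a drug-metabolising cytochrome P450 that is pericentral and is also induced through AHR, was at 321.5, 371.9, 391.1 and 263.2 CPM in PF. In EtOH it was at 509.7, 1790, 1257 and 1532 CPM, so that even EtOH 1, the lowest, lay above every PF library. Cyp1a2 rose 3.78-fold (log2 1.92 ± 0.30, edgeR adjusted p = 0.000155). Within the EtOH group, EtOH 1 had the least Cyp1a2 and also the least Glul, Oat, Rgn, Axin2, Lgr5, Tbx3 and Rnf43. Among the remaining EtOH libraries, EtOH 3 had the least Cyp1a2, Axin2, Lgr5, Tbx3 and Rnf43, but the most Oat and Rgn. Without EtOH 1, Cyp1a2 was at log2 2.18, Rgn at -1.05, Oat at -0.55, Axin2 at -0.84, Tbx3 at -1.54, Rnf43 at -0.96 and Fzd4 at -0.64, and all 7 passed the test.

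**Figure D2:**
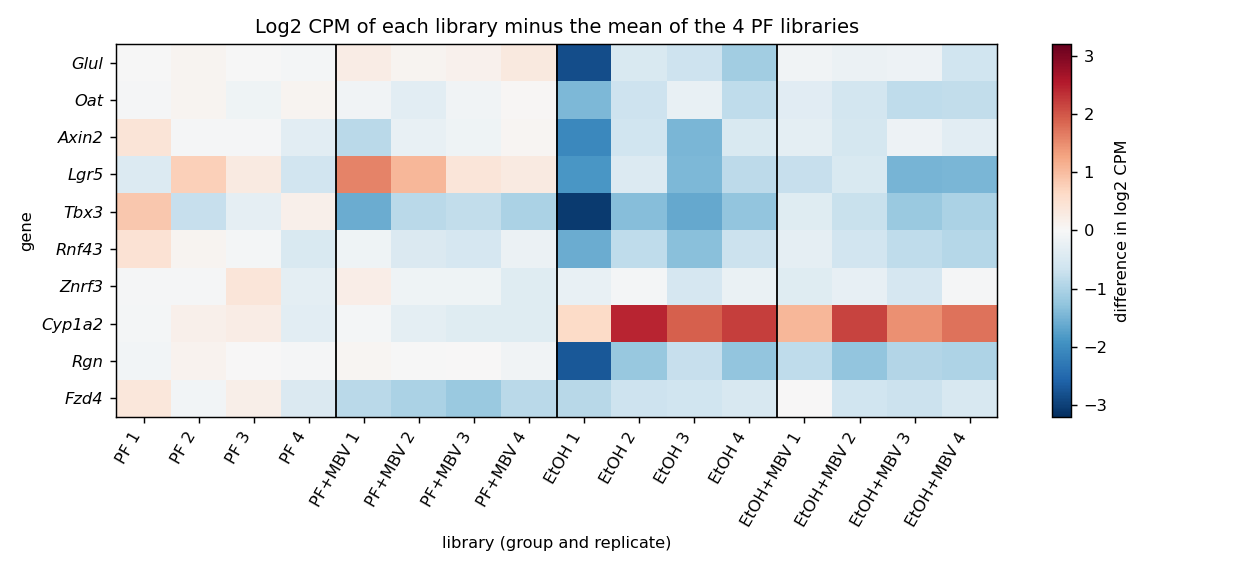
Colour gives log2 CPM of each gene (rows) in each of the 16 libraries (columns) minus the mean of the 4 PF libraries, blue for lower and red for higher. EtOH 1 holds the deepest blue cells, down to -3.07 for Tbx3 and -2.83 for Glul, and Cyp1a2 is red in all 8 libraries of the ethanol diet.

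Markers of other cells moved beside these genes. Of 12 liver endothelial markers, 8 fell and 2 rose, and their summed level was 651.3 to 746.5 CPM in PF and 481.3 to 589.7 CPM in EtOH. The lymphocyte list summed to 4.54 to 6.64 CPM in PF and 1.03 to 3.14 CPM in EtOH, with 1 of its 3 tested genes lower. Of the adipocyte list Cfd alone passed the count filter, at 5.78 to 19.3 CPM in PF and 0 to 0.0968 CPM in EtOH, while Adipoq, Plin1 and Lep had no counts in either group. Of 9 hepatocyte markers measured, 2 rose and 1 fell, with a median log2 fold change of 0.04. The part of these shifts in the results on the 10 genes was not tested.

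The rest of the pathway was read from lists of its genes. Of 25 ligand, R-spondin and secretion genes, 10 passed the count filter, 3 rose and 1 fell, and Wnt3, Wnt3a, Wnt8a, Wnt16 and Rspo4 had no counts in any library. Wnt5a, known for signalling without beta-catenin, rose from 1.01 ± 0.32 (SD, n = 4) to 5.96 ± 1.46 CPM (log2 2.56, edgeR adjusted p = 6.3e-06). Wnt9b, a ligand of the central vein endothelium, stood at 1.01 ± 0.37 CPM in PF and rose to 3.67 ± 1.43 CPM (log2 1.85, adjusted p = 0.000297). Wnt4 rose from 1.31 ± 0.35 to 3.71 ± 1.61 CPM (log2 1.503, adjusted p = 0.00529). Other ligands had lower means with ethanol. Wnt2b averaged 2.16 ± 0.74 CPM for PF against 1.06 ± 0.29 for EtOH, without overlap. Wnt2 (4.89 ± 0.84 against 3.34 ± 1.30 CPM) and Wnt5b (8.11 ± 1.60 against 5.03 ± 2.44 CPM) were lower on average, with overlapping groups. Rspo3 (5.816 ± 1.085 against 6.61 ± 1.77 CPM), Wnt9a, Porcn and Wls had higher means with ethanol. In the central vein endothelium list, 2 of 6 genes rose and 2 fell. There the anticoagulant receptor Thbd rose from 5.05 ± 0.33 to 77.8 ± 22.4 CPM (log2 3.94), and the receptor tyrosine kinase Kit fell from 10.7 ± 0.82 to 2.18 ± 0.59 CPM (log2 -2.30).

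Of 10 other Wnt receptors and co-receptors tested, from a list of 16, 2 rose and 2 fell. Lgr4, the R-spondin receptor found across the lobule, fell from 73.8 ± 4.03 to 41.7 ± 4.17 CPM (log2 -0.82), while Fzd6 (log2 1.55) and the co-receptor Lrp5 (log2 0.54) rose. Among 22 tested genes of the destruction complex, beta-catenin and TCF, 9 rose and 5 fell, with the co-repressor Tle3 at log2 1.83, the kinase Csnk1e at 1.39 and the APC-binding Amer1 at -1.77. Ctnnb1, the gene of beta-catenin, was at 219 to 234.9 CPM in PF and lower, at 157.1 to 206.6 CPM, in EtOH. The TCF factor Tcf7l2 was at 14.3 to 19.7 CPM in PF and lower, at 9.49 to 12.0 CPM, in EtOH. Of 6 tested antagonists, from a list of 19, 4 rose and none fell, among them Frzb, a secreted Wnt-binding protein (log2 1.32), Notum, which inactivates Wnt ligands (0.82), and Kremen1, a receptor for Dickkopf (0.41). The call on Kremen1 ended without PF 1 (adjusted p = 0.0851), PF 4 (0.0714) or EtOH 2 (0.1), and with 2 other scalings (0.0558 and 0.0629).

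Target and zonation genes outside the 10 were counted in the same way. Of 9 general Wnt target genes tested, from a list of 11, 5 rose and 1 fell, with a median log2 fold change of 0.82. Tnfrsf19 was at log2 1.75, the TCF factor Tcf7 at 1.61 and Notum, which both this list and the antagonists hold, at 0.82. Of 21 other pericentral genes, 7 rose and 5 fell, with a median of -0.11, and Cyp2c37 (log2 1.51) and Cyp2c54 (1.73) rose while Gulo, the last enzyme of vitamin C synthesis, fell (-1.01). The Cyp2c genes are close copies of each other, which makes the value of any 1 of them uncertain. Of 18 tested periportal genes, from a list of 19, 2 rose and 5 fell, with a median of -0.32. The urea cycle enzyme Otc was at log2 -0.66, the glucose-6-phosphatase G6pc at -3.01 and the lipid droplet enzyme Hsd17b13 at 0.72. Of 5 tested AHR target genes, from a list of 7, 3 rose and none fell: Nqo1 at log2 3.46, which oxidative stress also induces, Tiparp at 2.59 and Cyp1a1 at 1.09. The call on Cyp1a1 ended without PF 1 (adjusted p = 0.0921), PF 2 (0.0547), PF 3 (0.081), EtOH 1 (0.0563) or EtOH 2 (0.0997), and in the fit of the PF and EtOH libraries alone (0.0917).

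**Figure D3:**
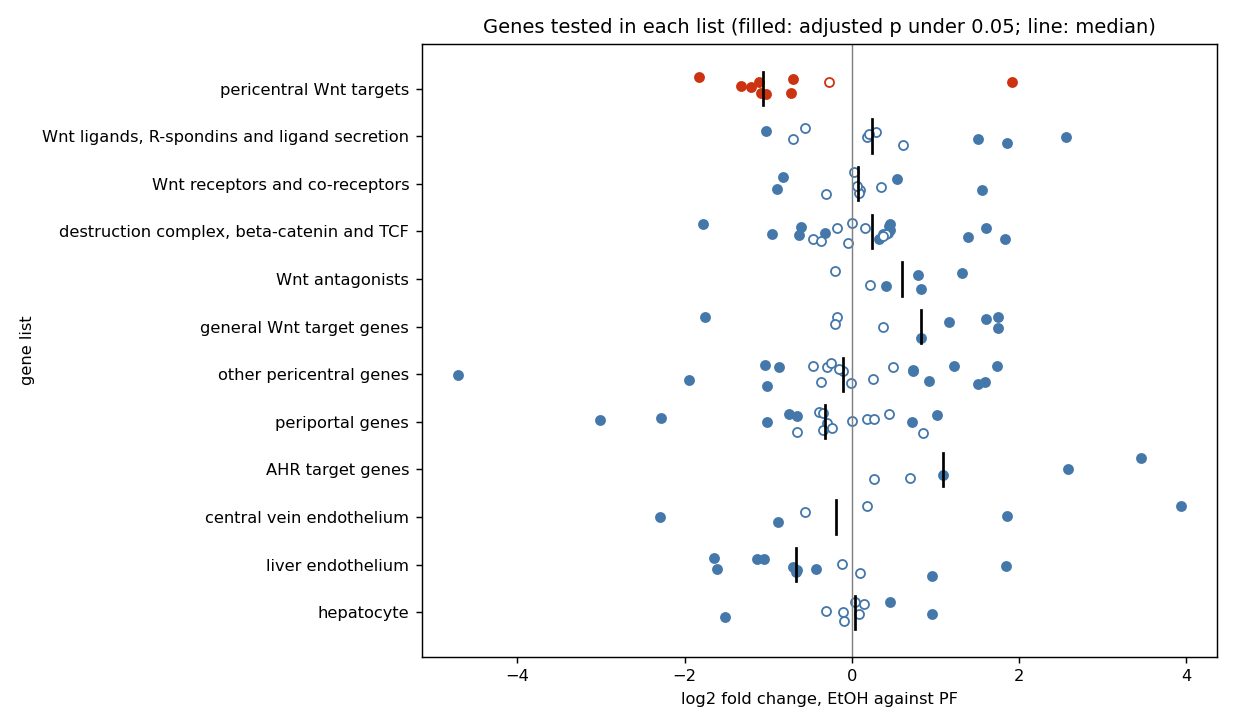
Log2 fold change of EtOH against PF for each tested gene (points, filled where the adjusted p is under 0.05) of the 10 genes and of the pathway, zonation and cell type lists, with a line at the median of a list. The median of the 10 genes lies at -1.06, that of general Wnt target genes at 0.82 and that of hepatocyte markers at 0.04.

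MBV on the ethanol diet was then compared with vehicle on the same diet. None of the 10 genes passed, where 2.69% of all tested genes did (edgeR's quasi-likelihood test, adjusted p under 0.05). At an unadjusted p under 0.05 there were 3, Glul, Axin2 and Tbx3, beside 21.1% of all tested genes, and DESeq2 and limma voom also called none of the 10. This comparison and the diet comparison share the EtOH libraries, so a low EtOH value enters both.

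Glul was at 1011, 968.1, 971.9 and 702.6 CPM in EtOH+MBV. Of these libraries 3 lay above every EtOH library and below every PF library, and replicate 4 lay inside the EtOH range. Its log2 fold change was 0.77 ± 0.31 (95% interval 0.11 to 1.43, edgeR adjusted p = 0.167). Mean Glul stood at 48.9% of the PF mean in EtOH and at 83.4% in EtOH+MBV. Axin2 was at 7.51, 6.29, 8.28 and 7.35 CPM in EtOH+MBV, with 1 library inside the EtOH range (log2 0.72 ± 0.29, 95% interval 0.11 to 1.34, adjusted p = 0.163). Tbx3 was at 33.5, 26.7, 19.4 and 21.8 CPM in EtOH+MBV, all above the EtOH libraries, which 7.6% of all tested genes also showed in either direction (log2 0.90 ± 0.36, 95% interval 0.14 to 1.65, adjusted p = 0.160). Without EtOH 1 these log2 values were 0.47 for Glul, 0.49 for Axin2 and 0.62 for Tbx3, with adjusted p of 0.127, 0.352 and 0.33.

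The other 7 genes overlapped between EtOH+MBV and EtOH. Rnf43 was at 16.2, 12.9, 11.1 and 10.4 CPM in EtOH+MBV (log2 0.44 ± 0.22, edgeR adjusted p = 0.270), with replicate 1 the highest of its group. Rgn was at 570.6, 414.3, 521.3 and 500.5 CPM (log2 0.32 ± 0.26, 95% interval -0.23 to 0.87) and Oat at 1248, 1065, 915.1 and 931.1 CPM (log2 0.09 ± 0.19, interval -0.32 to 0.50). Mean Rgn thus stood at 50.2% of the PF mean and mean Oat at 64.4%, beside 40.1% and 60.5% in EtOH. Fzd4 was at 31.9, 20.3, 19.7 and 22.1 CPM (log2 0.24 ± 0.18, interval -0.13 to 0.61). Lgr5, at 2.36, 2.81, 1.34 and 1.38 CPM, had log2 0.08 ± 0.42 (interval -0.82 to 0.97), and Znrf3, at 11.9, 13.0, 10.8 and 15.2 CPM, had log2 -0.04 ± 0.16 (interval -0.39 to 0.31). Cyp1a2 stayed high, at 690.5, 1494, 922.5 and 1120 CPM, with log2 -0.27 ± 0.29 (interval -0.88 to 0.35).

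Of the pathway genes, Wnt2b, a ligand, was higher with MBV on the ethanol diet (log2 1.09 ± 0.28, edgeR adjusted p = 0.0475), at 2.26 ± 0.31 CPM against 1.06 ± 0.29 (SD, n = 4). Kit of the central vein list rose from 2.18 ± 0.59 to 5.80 ± 0.54 CPM (log2 1.42 ± 0.20, adjusted p = 0.00516). In the fit of these 2 groups alone, where no gene passed, the adjusted p was 0.24 for Wnt2b and 0.227 for Kit. The call on Kit held in the other 26 alternatives, whereas that on Wnt2b ended in 19 of 27, among them those without EtOH 1 (0.122), EtOH 2 (0.0997), EtOH 3 (0.0584) and EtOH+MBV 2, 3 or 4 (0.088, 0.116 and 0.0893). No tested gene passed among the 10 other receptors, the 22 destruction complex genes, the 6 antagonists, the 9 general targets, the 21 other pericentral, the 18 periportal or the 5 AHR target genes.

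On the pair-fed diet, a receptor was lower with MBV. Fzd4 was at 17.3, 15.8, 13.8 and 17.3 CPM in PF+MBV, below all 4 PF libraries and at 49.4% of the PF mean. It was 2.03-fold lower (log2 -1.02 ± 0.18, edgeR adjusted p = 0.0107), the sole call among the 10 genes, where 1.78% of all tested genes passed and 1.03% passed as lower. Of the 12 liver endothelial markers none passed in this comparison, and their sums of 664.7 to 740 CPM in PF+MBV lay inside the PF range. Whether a change in endothelial cells had a part in the lower Fzd4 was not tested. Of the 10 genes 3 did not overlap between the groups, Fzd4, Tbx3 and Glul, beside 15.0% of all tested genes.

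Tbx3 was at 14.7, 24.1, 25.4 and 21.9 CPM in PF+MBV, all below the lowest PF library (26.4 CPM). Its log2 fold change was -1.16 ± 0.35 (95% interval -1.90 to -0.43), with adjusted p = 0.0964 by edgeR and 0.0231 by DESeq2. The edgeR value was 0.0303 without PF 2, 0.0277 without EtOH 1 and 0.0339 in a fit of the PF and PF+MBV libraries alone. Lgr5 was at 12.3, 8.44, 5.26 and 4.93 CPM in PF+MBV, which includes the 2 highest libraries of all 16, and overlapped PF (log2 0.84 ± 0.38, interval 0.04 to 1.64, adjusted p = 0.270). Glul was at 1279, 1166, 1207 and 1347 CPM, with replicate 2 level with the highest PF library and the other 3 above it (log2 0.19 ± 0.31, interval -0.46 to 0.85, adjusted p = 0.818).

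The remaining 6 genes overlapped between PF+MBV and PF and did not pass. Log2 values were -0.29 ± 0.28 for Axin2, -0.37 ± 0.21 for Rnf43, -0.12 ± 0.16 for Znrf3, -0.13 ± 0.19 for Oat, -0.01 ± 0.26 for Rgn and -0.30 ± 0.29 for Cyp1a2. Axin2 ranged from 5.06 to 9.74 CPM in PF+MBV, Rnf43 from 13.4 to 18.0, Znrf3 from 11.9 to 17.9, Oat from 1271 to 1642, Rgn from 931 to 1039 and Cyp1a2 from 254.8 to 316.6. Among pathway genes, Lrp5 was at 146.3 ± 11.4 CPM (SD, n = 4) and rose from the 85.6 ± 12.8 CPM of PF (log2 0.77 ± 0.14, edgeR adjusted p = 0.0129). Thbd rose to 12.8 ± 2.76 CPM (log2 1.34 ± 0.24, adjusted p = 0.0113). The receptor gene Ahr (log2 0.78, adjusted p = 0.0184) and the target Nqo1 (log2 1.38, adjusted p = 0.0358) also rose, while Cyp1a2 did not pass. Without PF 1 none of these 4 calls held (adjusted p = 0.0623 for Lrp5, 0.0509 for Thbd, 0.0623 for Ahr and 0.125 for Nqo1). Those on Lrp5, Ahr and Nqo1 also ended without PF 3 (0.0575, 0.0608 and 0.0992) or PF+MBV 1 (0.056, 0.0653 and 0.107). That on Ahr ended without PF+MBV 3 (0.054), and that on Nqo1 without PF 4 (0.0781), PF+MBV 3 (0.0633) or PF+MBV 4 (0.111).

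**Figure D4:**
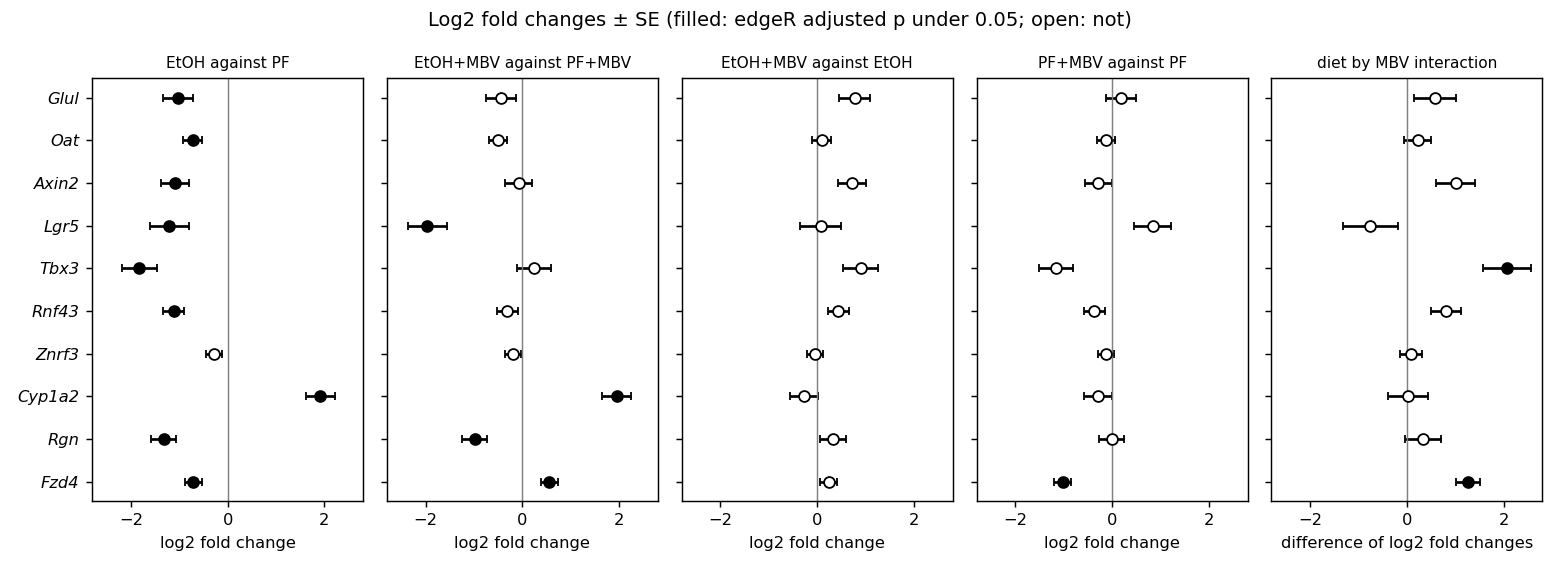
Log2 fold change ± SE of each gene in the 4 comparisons between groups, and the difference of log2 fold changes in the interaction of diet and MBV (n = 4 libraries per group), filled where the adjusted p is under 0.05. In EtOH against PF 9 genes are filled, in EtOH+MBV against EtOH none, and Fzd4 and Tbx3 are filled in the interaction.

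The diets were also compared between the groups given MBV. Of the 10 genes 4 passed, where 35.9% of all tested genes did, 19.2% higher and 16.7% lower with ethanol (edgeR's quasi-likelihood test). The groups did not overlap for 6 genes, beside 39.0% of all tested genes. Cyp1a2 was 3.85-fold higher (log2 1.95 ± 0.30, adjusted p = 0.000202), and Rgn was 1.98-fold lower (log2 -0.99 ± 0.26, adjusted p = 0.00843). Lgr5 was 3.90-fold lower (log2 -1.96 ± 0.40, adjusted p = 0.00153), with every EtOH+MBV library at or under 2.81 CPM and every PF+MBV library at or over 4.93 CPM. Fzd4 was 1.47-fold higher in EtOH+MBV than in PF+MBV (log2 0.55 ± 0.18, adjusted p = 0.0236), the opposite direction to EtOH against PF.

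That call on Fzd4 ended without EtOH+MBV 1 (log2 0.37, adjusted p = 0.0836), PF+MBV 2 (0.54, 0.0533) or PF+MBV 3 (0.50, 0.0619), and with libraries scaled by their totals (0.42, 0.106). Glul and Oat did not overlap between these groups, yet did not pass in the fit of all libraries. Oat had log2 -0.50 ± 0.19 with edgeR adjusted p = 0.0507, and passed without EtOH 1 (0.0071), EtOH 3 (0.0251) or EtOH+MBV 1 (0.0282). Glul had log2 -0.45 ± 0.31 with adjusted p = 0.269, and passed without EtOH 1 (log2 -0.44, adjusted p = 0.0127), a library of neither group. The other 4 genes overlapped, with log2 values of -0.08 ± 0.28 for Axin2, 0.24 ± 0.35 for Tbx3, -0.31 ± 0.22 for Rnf43 and -0.19 ± 0.16 for Znrf3.

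Around them, Wnt5a (log2 2.52), Wnt9b (1.26), Tle3 (2.28), Notum (1.02), Dact1 (1.60), Sox9 (1.76), Cyp2c37 (1.36), Cyp2c54 (1.69), Tiparp (1.34), Nqo1 (1.14) and Thbd (2.31) were higher with ethanol under MBV. Lrp6 (0.43), Apc (0.48) and the urea cycle enzyme Cps1 (1.02) were higher too, and Lgr4 (-0.66) and the gluconeogenic enzyme Pck1 (-1.0) were lower. The calls on Lrp6 and Apc ended with libraries scaled by their totals (edgeR adjusted p = 0.0531 and 0.0655). As higher and as lower there passed 4 and 0 of 10 ligand genes, 3 and 1 of 10 receptors, 5 and 1 of 22 destruction complex genes, 2 and 0 of 6 antagonists and 5 and 0 of 9 general targets. The counts were 5 and 3 of 21 other pericentral, 3 and 4 of 18 periportal, 2 and 0 of 5 AHR target and 2 and 2 of 6 central vein genes.

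Whether MBV acted differently on the 2 diets was tested as the difference between the MBV effects. Of the 10 genes 2 passed, both with a more positive MBV effect on the ethanol diet, where 4.11% of all tested genes passed and 2.02% in that direction (edgeR's quasi-likelihood test). For Fzd4 the MBV effect was log2 -1.02 on the pair-fed diet and 0.24 on the ethanol diet, a difference of 1.26 ± 0.25 (adjusted p = 0.0188). For Tbx3 it was -1.16 and 0.90, a difference of 2.06 ± 0.50 (adjusted p = 0.0324). The call on Fzd4 held in each of the 26 alternatives run. That on Tbx3 ended without PF 1 (1.71, adjusted p = 0.0696), PF 3 (0.0503), PF 4 (0.0565), EtOH+MBV 2 (0.0524), EtOH+MBV 3 (0.0502), PF+MBV 1 (0.0684), PF+MBV 2 (0.0556) or PF+MBV 4 (0.0645).

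Differences for the other 8 genes did not pass. They were 1.01 ± 0.40 for Axin2 (95% interval 0.16 to 1.86, edgeR adjusted p = 0.146), 0.80 ± 0.31 for Rnf43 (interval 0.15 to 1.45, adjusted p = 0.132) and 0.58 ± 0.44 for Glul (interval -0.35 to 1.51). Rgn had 0.33 ± 0.37, Oat 0.22 ± 0.27, Znrf3 0.08 ± 0.23, Cyp1a2 0.03 ± 0.41 and Lgr5 -0.76 ± 0.57. In the pathway lists, positive differences that passed were those of Wnt5b (1.94), Amer1 (1.36) and Kit (1.74). Negative ones were those of Ahr (-1.17), Nqo1 (-2.31), Tiparp (-1.25), Thbd (-1.63) and the apolipoprotein Apoa4 (-2.06). Of these, the calls on Wnt5b, Amer1, Tiparp and Apoa4 ended without any of 4, 9, 12 and 8 single libraries, with an edgeR adjusted p of at most 0.0552, 0.0766, 0.0979 and 0.0667 there.

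Across the 16 libraries, with the diet groups included, most pairs of the genes other than Cyp1a2 varied together. Pearson's r of log2 CPM over the 16 libraries had a median of 0.645 in their 36 pairs, of which 35 were positive, and of -0.367 in the 9 pairs with Cyp1a2. With the mean of each group taken off, all 9 pairs with Cyp1a2 were positive, with a median of 0.447, and the other 36 pairs had a median of 0.367 and a lowest of -0.332, with 31 positive. In the PF and PF+MBV libraries alone, r in the 36 pairs without Cyp1a2 ran from -0.871 (Lgr5 and Tbx3) to 0.806 (Rnf43 and Fzd4). The r over the 16 libraries shares the diet groups. The low EtOH 1 library enters it and also the r with group means taken off. All these values describe these libraries only.

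Genes most like Glul over the 16 libraries were Ugt3a1 (r = 0.977), Fam171a1 (0.967) and Serpina12 (0.965), by Pearson's r of log2 CPM among tested genes of at least 5 CPM on average. For Oat they were Ndufb3 (0.982) and Cox7b (0.973), both of the mitochondrial respiratory chain, and Gcdh (0.975), and for Lgr5 they were Fam210a (0.929), Adgra2 (0.922) and Clk3 (0.92). Axin2 was most like Slc2a4rg-ps (0.902), a pseudogene by name, Mylk (0.882) and Mug1 (0.858). Cyp1a2 was most like Cyp2c54 (0.969), Cyp2c50 (0.966) and Bcl2l11 (0.961), and these 3 had r of -0.273, -0.249 and -0.391 with Glul. All 16 points share the 4 groups, and no test was made.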

How the data were processed

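Polyadenylated RNA of mouse liver was sequenced in 16 libraries, 4 for each of PF, EtOH, EtOH+MBV and PF+MBV. Read counts per gene were used as the authors deposited them, as whole numbers without normalization, in 1 table per library. Trimmomatic, STAR and the mouse build mm10 are named in the submitters' processing notes; their versions and settings, and the gene models, were not given in the sources used here. For this work the unstranded column was taken, since the stranded columns split reads nearly evenly (50.6% to 51.8% in one of them). Rows that name no gene stayed out of library sizes: 9.4% to 10.9% of the reads had no feature and 1.35% to 1.69% were ambiguous. STAR counts reads that map to 1 place, so near-identical genes lose reads.

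Genes were kept by edgeR's filterByExpr (minimum count 10), which left 12901 of 24411, and libraries were scaled by TMM (factors 0.863 to 1.27). The quasi-likelihood model of edgeR 4.0.16 (R 4.3.3) took all 16 libraries and gave each group its own mean. In it 4 comparisons and their interaction were tested, and p-values were adjusted over all tested genes with 0.05 as the limit. SE is the absolute log2 fold change over the root of the F statistic. Log2 CPM used a prior count of 2. Alternatives were other scalings and filters, DESeq2 1.42.0, limma 3.58.1 (voom), a robust prior, a replicate block, each library left out, and fits of 2 groups.

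The 10 genes, the lists and the tests were chosen with earlier results of these data known. All 10 genes were named in each comparison, and from each pathway list and the central vein list up to 3 called genes with the smallest p in EtOH against PF and up to 2 in the others. Outside this rule, Ctnnb1, Tcf7l2, Wnt2, Wnt2b, Wnt5b, Wnt9a, Rspo3, Porcn and Wls were also named in EtOH against PF. Adding the TATA letters was decided after the sequences were seen. Tf and Ly6g of the marker lists were not analysed here. Chi-square per degree of freedom between replicates of a group was 8.54 to 163, so no library was a copy of another of its group.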

Additional observations from a re-analysis of the deposited data

Results flagged for a closer look

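Glul in replicate 4 of EtOH+MBV, at 702.6 CPM, lay apart from the other 3 libraries of its group (968.1 to 1011 CPM). Its gap to the nearest of them was 0.882 of the range of the group, above Dixon's 95% critical value for 4 samples. This was 1 of 40 groups checked (10 genes in 4 groups), and chance alone gives about 1 in 20.

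The effect of MBV differed between the diets for Tbx3, by 2.06 on the log2 scale (edgeR adjusted p = 0.0324), and for Fzd4, by 1.26 (adjusted p = 0.0188). All 4 libraries of Tbx3 in EtOH+MBV lay above those in EtOH, and all 4 in PF+MBV lay below those in PF. The call on Tbx3 ended without any of 8 single libraries (adjusted p = 0.0502 to 0.0696).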

How the results depend on the processing

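Over 27 alternatives (26 for the interaction), no call on the 10 genes changed direction. Of the 9 calls in EtOH against PF, 7 were kept in all 27, and those on Glul and Lgr5 ended where the report says; Lgr5 had log2 -0.97 (adjusted p = 0.0723) without EtOH 1 and EtOH+MBV 1. The number of the 10 genes called there was 8 to 9 with a library left out. In PF+MBV against PF, 2 of the 10 genes passed by DESeq2 and in the fit of 2 groups, and 1 to 2 with libraries left out. The calls on Lgr5, Cyp1a2 and Rgn in EtOH+MBV against PF+MBV and on Fzd4 in PF+MBV against PF were kept in all 27, and the number called in EtOH+MBV against PF+MBV was 3 to 6 with a library left out. Upper quartile scaling, library totals, DESeq2 and the fit of 2 groups also called Oat there (adjusted p = 0.0264, 0.00408, 0.0265 and 0.00835), and the fit of 2 groups also called Glul (0.0136). In the interaction, 1 to 2 of the 10 passed with libraries left out. The cause of these changes was not tested.

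Counts over all genes moved further. In EtOH+MBV against EtOH, 347 genes passed (160 higher, 187 lower), against 196 with library totals (60 and 136), 905 by DESeq2, 8 (without EtOH+MBV 3) to 1169 (without EtOH 4) with libraries left out, and 0 in the fit of those 2 groups by edgeR, where 1679 had an unadjusted p under 0.05. In PF+MBV against PF, 230 passed, against 665 by DESeq2, 1119 in the fit of 2 groups and 45 (without PF 1) to 1022 (without EtOH 1 and EtOH+MBV 1). In the interaction, 530 passed (261 higher, 269 lower), against 349 with library totals (93 and 256), 1113 by DESeq2 and 168 (without PF 1) to 1088 (without EtOH 4). Library totals gave 1446 higher and 2686 lower in EtOH+MBV against PF+MBV, where TMM gave 2478 and 2155, and moved the median of all genes to -0.11, -0.15 and -0.18 in EtOH+MBV against EtOH, EtOH+MBV against PF+MBV and the interaction.

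Values near 0 that did not pass changed sign. In EtOH+MBV against EtOH, leaving out libraries gave log2 -0.19 to 0.30 for Oat, -0.25 to 0.37 for Lgr5, -0.14 to 0.037 for Znrf3, -0.016 to 0.60 for Rgn and -0.014 to 0.32 for Fzd4, and library totals gave -0.019 for Lgr5. In PF+MBV against PF it gave -0.24 to 0.026 for Znrf3 and -0.047 to 0.030 for Rgn, and Rgn was at 0.0015 with upper quartile scaling and 0.054 with library totals. Axin2 in EtOH+MBV against PF+MBV ranged from -0.24 to 0.044. In the interaction the ranges were -0.055 to 0.44 for Oat, -0.064 to 0.20 for Znrf3, -0.23 to 0.24 for Cyp1a2 and -0.0026 to 0.61 for Rgn, with -0.11 for both Znrf3 and Cyp1a2 by library totals.

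Replicate numbers are shared between groups, but libraries with the same number did not deviate together (r from -0.0879 to 0.155 over 16 pairs), so they were not treated as pairs. With the replicate number as a block, 205 genes passed in EtOH+MBV against EtOH, and 1 of the 10 genes in the interaction, where Tbx3 had a difference of 2.03 (adjusted p = 0.06). The block changed no other call on the 10 genes.

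Depth limits the low genes most: Lgr5, at 1103 counts over all libraries, and Axin2, at 1989, have the fewest reads of the 10. Replicates differed most from each other in EtOH and least in PF+MBV, by the chi-square of their counts, and a spread shared by all groups enters each p-value.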

Other observations

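Marker lists of other liver cells gave mixed counts with ethanol (EtOH against PF, edgeR adjusted p under 0.05). Of all tested genes 39.8% passed there, 20.4% as higher and 19.5% as lower. Of 11 stellate cell markers 5 rose and 2 fell, 3 of the 7 tested markers of monocytes and recruited macrophages rose while 2 fell, and of 10 Kupffer cell markers 1 rose. Among 6 tested cholangiocyte markers 1 rose, among 4 dividing cell markers 1 rose, among 3 tested lymphocyte markers 1 fell, and of 5 tested neutrophil markers none passed. Monocyte markers summed to 38.05 to 129.5 CPM in the EtOH libraries, with EtOH 1 the highest, and to 46.0 to 58.3 CPM in the PF libraries. The other pericentral genes summed to 4823 CPM in EtOH 1, and to at most 15550 CPM in its group.

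With MBV on the ethanol diet, 2 of 4 dividing cell markers and 1 of 7 monocyte markers were lower and 1 of 12 liver endothelial markers was higher. Dividing cell markers summed to 1.27 to 2.89 CPM in EtOH+MBV, below every EtOH library (EtOH 1 at 81.94 CPM, the lowest at 4.063 CPM). In this comparison 2.69% of all tested genes passed, and none did in a fit of its 2 groups alone.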
